A study of Mus musculus with 2 samples.

Results

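Transcripts of 10 adhesion molecules and sialomucins of the vessel wall (Vcam1, Icam1, Icam2, Sele, Selp, Pecam1, Madcam1, Cd34, Emcn and Mcam) were compared between 2 cell pools, both labelled as bEnd3 cells. They were taken as all probe sets annotated to exactly 1 gene, that gene being on this list, which gave 14 of 34945 such probe sets and 10 of 18193 genes. The bEnd3 line comes from brain microvessels of the cerebral cortex of BALB/c mice and is transformed by polyoma middle T antigen. The first pool received an siRNA against Smad4, which encodes the Smad that the TGF-β and the BMP branch share, and the second a control siRNA, both from retrovirus made in PLAT-E cells and followed by puromycin selection. Serum was 15% for both pools. The comparison asks which transcripts depend on Smad4 in these cells. Each pool joined 2 infections and was measured on 1 Affymetrix array, so there is no replicate, no test between the groups is possible, and precision is limited by the number of arrays. A transformed line that grows without flow or leukocytes is a limited model of the vessel wall.

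These proteins serve the steps by which white blood cells leave the blood. Selectins on the endothelium slow passing leukocytes by binding sugars on mucin-like proteins, ligands of the immunoglobulin family then hold the leukocyte integrins, and PECAM-1 at the cell contacts takes part in the passage itself. Sialomucins such as CD34 and endomucin are long, heavily glycosylated and negatively charged proteins. They can present selectin ligands in lymph node vessels and are thought to hold cells apart elsewhere. In resting brain endothelium the inducible molecules are kept low, and TNF or IL-1 raises Vcam1, Icam1 and Sele through NF-κB.

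The arrays did not show the fall that the first label implies, and so the first sample is called the Smad4-siRNA-labelled array and the second the control array. By its 3 probe sets, Smad4 showed log2 ratios of 0.25, 0.58 and 0.35 with quantile normalization and of -0.12, 0.21 and -0.07 in the deposited values. Xist, a transcript of the inactive X chromosome, had a signal of 4476 on the Smad4-siRNA-labelled array and of 20.7 on the control array, whereas the Y-linked Eif2s3y had 0.349 on the Smad4-siRNA-labelled array and 324 on the control array. The Y-linked Kdm5d and Uty also reached the floor on the control array only. These values go against the labels, which give the same line for both pools, so whether both hold that line is in doubt. A difference of siRNA and a difference of cells cannot be told apart in any result below. With 1 array per group, no result can be given without either array. The words "higher" and "lower" give the direction on the Smad4-siRNA-labelled array against the control array and do not stand for an effect of losing Smad4. Signals are quantile-normalized MAS5 signals, and a signal under the array median of 22.8 is below the floor. Where 1 side was below it, the fold is a bound of the bright signal over the floor. Between probe sets of the same gene with neither signal under the floor, log2 ratios varied with a pooled SD of 0.47 (4546 genes). This SD is a technical error that holds nothing of the spread between cultures. It does not cover probe sets with a signal under the floor. With these included, the SD of plain log2 ratios was 1.57 for Selp and 2.02 for Vcam1.

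Of the 10 genes, 7 were at least 2-fold lower (Emcn, Pecam1, Icam2, Cd34, Mcam, Selp and Sele), 2 were at least 2-fold higher (Vcam1 and Icam1), and Madcam1 was below the floor on both arrays. Among all 11581 genes at or above the floor on at least 1 array, 15.8% were at least 2-fold lower and 16.0% at least 2-fold higher. A difference of at least 8-fold lower was found for 6 of the 9 genes measured here and for 1.51% of all genes. The median log2 ratio of the 9 genes was -3.96, against -0.14 over all genes, and it was also -3.96 with sides below the floor raised to it (-0.11 over all genes). By order of their log2 ratios or bounds, Emcn had the lowest of the 11581 values, Pecam1 stood 9th, Icam2 17th, Cd34 32nd, Mcam 74th, Selp 92nd and Sele 187th from the low end. Bounds follow how bright the gene was on the control array, so this order is not one of true fold. In these pools, fewer cells that express a gene and less of its RNA per cell cannot be told apart.

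**Figure D1:**
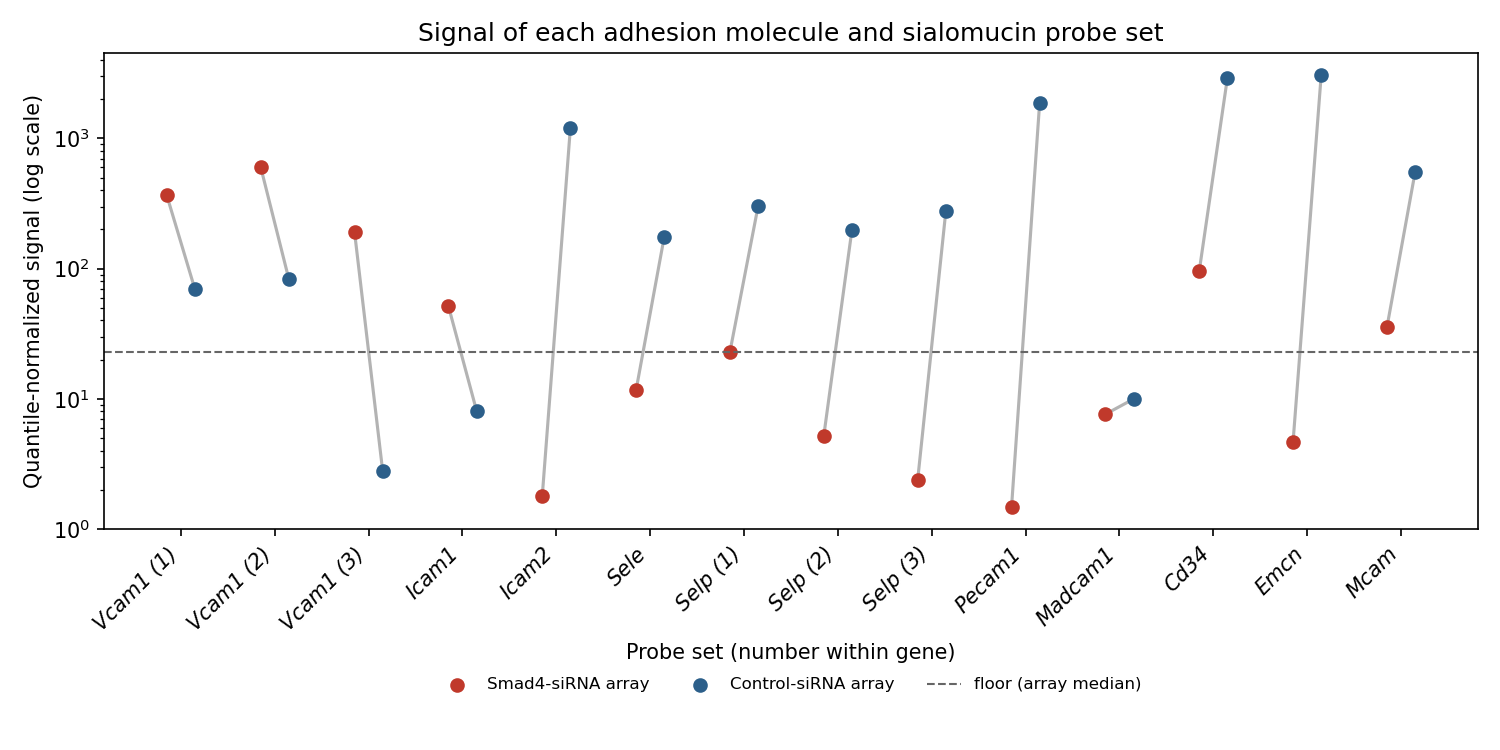
Quantile-normalized signal (log scale) of each of the 14 probe sets on the Smad4-siRNA-labelled array (red) and the control array (blue), joined by a line, with the floor of 22.8 dashed. The 9 probe sets of Icam2, Sele, Selp, Pecam1, Cd34, Emcn and Mcam run upwards to the control array, the 4 of Vcam1 and Icam1 run downwards, and both Madcam1 points lie under the floor.

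The endothelial selectins were both lower. Selp encodes P-selectin, which endothelium and platelets store in granules and bring to the surface on stimulation. Its brightest probe set had a signal of 23.0 on the Smad4-siRNA-labelled array, just above the floor, and of 301 on the control array, a log2 ratio of -3.71 or 13.1-fold lower. The other Selp probe sets had signals of 5.21 and 2.37 on the Smad4-siRNA-labelled array, both below the floor, against 199 and 276 on the control array. Their bounds were at least 8.74-fold and at least 12.1-fold lower, so all 3 probe sets had the same direction. They differed among themselves in plain log2 ratio (-3.71, -5.26 and -6.86), as do values whose lower side is below the floor. Sele encodes E-selectin, which is made anew by endothelium exposed to cytokines. Its probe set had a signal of 11.7 on the Smad4-siRNA-labelled array, below the floor, and of 175 on the control array, and was at least 7.70-fold lower. With the floor at the 75th percentile (127), the bound for Sele was a log2 value of -0.47, under 2-fold.

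The integrin ligands of the immunoglobulin family went in opposite directions. Vcam1 encodes the ligand of the integrin α4β1 and was higher by all of its 3 probe sets. Their signals were 605, 365 and 192 on the Smad4-siRNA-labelled array, against 83.3, 69.3 and 2.79 on the control array. The first of these was 7.26-fold higher and the second 5.27-fold higher, with log2 ratios of 2.86 and 2.40 that differ by about the pooled SD. The third, whose suffix marks sequence shared by transcripts of the gene, was under the floor on the control array and at least 8.43-fold higher, so Vcam1 reached the floor on the control array by 2 of 3 probe sets. In the order of all 11581 genes from the high end, Vcam1 stood at 422.

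Icam1 encodes the inducible ligand of the β2 integrins LFA-1 and Mac-1. Its probe set had a signal of 51.7 on the Smad4-siRNA-labelled array and of 8.13, below the floor, on the control array, and was at least 2.27-fold higher. With the floor at the 75th percentile, Icam1 was below it on both arrays. Icam2 encodes a ligand of LFA-1 that resting endothelium makes without induction. Its probe set had a signal of 1.78 on the Smad4-siRNA-labelled array, below the floor, and of 1206 on the control array, at least 52.9-fold lower. The constitutive and the inducible ICAM gene thus had opposite signs. Madcam1 encodes the mucosal addressin that binds the integrin α4β7 and is known from vessels of the gut. It had signals of 7.62 on the Smad4-siRNA-labelled array and 9.97 on the control array, so that no fold is given.

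The adhesion molecules of endothelial contacts were lower. Pecam1 encodes PECAM-1 (CD31), a homophilic adhesion molecule of endothelial junctions, platelets and leukocytes. Its probe set had a signal of 1.46 on the Smad4-siRNA-labelled array, below the floor, and of 1885 on the control array, at least 82.8-fold lower. Mcam encodes CD146, an adhesion molecule of endothelial contacts that pericytes and smooth muscle also make. Its probe set was above the floor on both arrays, with 35.5 on the Smad4-siRNA-labelled array and 551 on the control array, 15.5-fold lower.

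The sialomucins were lower as well. Cd34, a marker of capillary endothelium and of blood progenitors, was measured on both arrays, with a signal of 95.7 on the Smad4-siRNA-labelled array and of 2906 on the control array. It was 30.4-fold lower. Emcn encodes endomucin, a sialomucin of capillaries and veins. Its probe set had a signal of 4.68 on the Smad4-siRNA-labelled array, below the floor, and of 3092 on the control array, at least 136-fold lower. Of the 7 lower genes, Cd34 and Mcam were above the floor on the Smad4-siRNA-labelled array and Selp was so by 1 of 3 probe sets, whereas Emcn, Pecam1, Icam2 and Sele were below it. Reaching the floor on the control array alone was found for 4 of the 9 genes and for 8.71% of all genes.

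**Figure D2:**
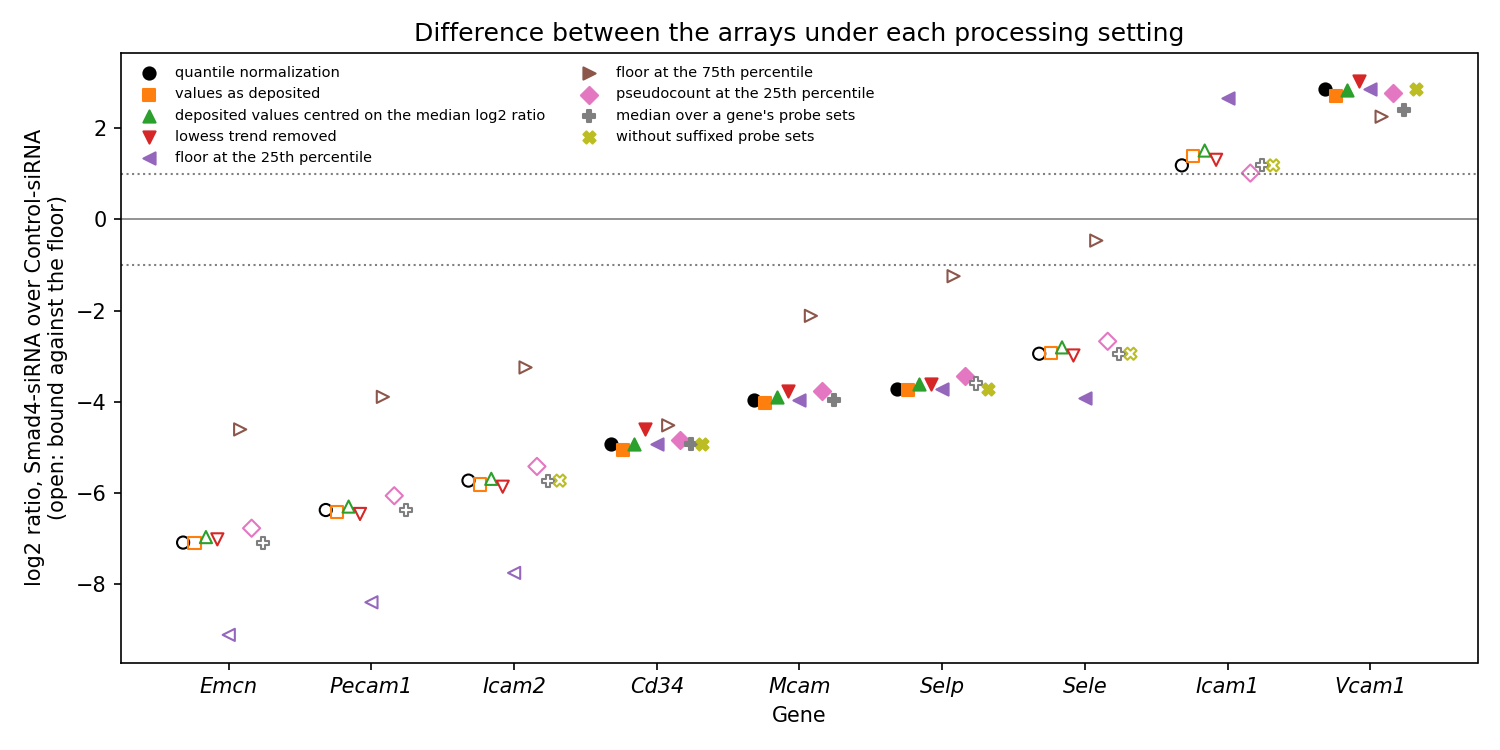
Log2 ratio (filled) or bound against the floor (open) of 9 genes under quantile normalization and 8 other settings, with dotted lines at 2-fold; Madcam1 is left out. The 7 lower genes stay below 0 and Vcam1 and Icam1 above 0 wherever they were measured, and moving the floor shifts the bounds of Emcn, Pecam1 and Icam2 by more than a log2 unit each way.

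The promoters of the lower genes with a RefSeq entry and of Icam1, which was higher, are shown with their matches to ETS and κB motifs, because both kinds of factor are known to act on genes of this family. RefSeq promoter entries of build GRCm38.p6 matched 7 of the 10 genes (Icam1, Sele, Selp, Madcam1, Cd34, Emcn and Mcam). The 250 bases before each listed start were searched on both strands, and each is printed from the plus strand, on which these genes lie. Capitals mark AGGAAG, a core bound by ETS factors (CTTCCT where it lies on the other strand), and GGANATTCC, a pattern close to κB sites that was chosen after the sequences were read. Icam1 is shown at chr9:21015690-21015939, Sele at chr1:164047984-164048233, Selp at chr1:164115014-164115263, Cd34 at chr1:194938571-194938820, Mcam at chr9:44134408-44134657 and Emcn at chr3:137340828-137341061, the Emcn window ended at base 17 before its listed start, where the gene table has the gene begin. The Sele window lies within the span that the same table gives for the gene.
Icam1: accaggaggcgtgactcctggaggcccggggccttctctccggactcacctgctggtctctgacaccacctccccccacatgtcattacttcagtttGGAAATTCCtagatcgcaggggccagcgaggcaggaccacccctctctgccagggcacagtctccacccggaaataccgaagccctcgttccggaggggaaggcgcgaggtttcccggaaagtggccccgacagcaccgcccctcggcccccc
Sele: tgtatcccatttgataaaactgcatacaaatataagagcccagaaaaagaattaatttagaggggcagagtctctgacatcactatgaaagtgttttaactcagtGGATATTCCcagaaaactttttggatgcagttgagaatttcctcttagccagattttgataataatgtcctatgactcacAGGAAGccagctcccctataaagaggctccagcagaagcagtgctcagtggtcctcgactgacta
Selp: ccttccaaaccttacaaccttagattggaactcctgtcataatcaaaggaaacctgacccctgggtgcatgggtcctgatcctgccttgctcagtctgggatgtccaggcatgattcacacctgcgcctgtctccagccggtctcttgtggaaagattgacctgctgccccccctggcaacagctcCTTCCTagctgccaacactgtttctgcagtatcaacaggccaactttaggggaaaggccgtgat
Cd34: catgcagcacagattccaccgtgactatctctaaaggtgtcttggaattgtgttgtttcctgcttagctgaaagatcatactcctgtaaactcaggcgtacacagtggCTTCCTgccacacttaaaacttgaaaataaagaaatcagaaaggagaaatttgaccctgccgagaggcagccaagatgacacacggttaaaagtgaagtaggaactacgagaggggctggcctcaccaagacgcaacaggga
Emcn: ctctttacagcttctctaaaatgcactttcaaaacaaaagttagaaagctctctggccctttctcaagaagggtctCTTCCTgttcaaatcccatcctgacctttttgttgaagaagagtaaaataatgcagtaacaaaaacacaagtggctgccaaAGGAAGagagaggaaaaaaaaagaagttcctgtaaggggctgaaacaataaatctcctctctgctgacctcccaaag
Mcam: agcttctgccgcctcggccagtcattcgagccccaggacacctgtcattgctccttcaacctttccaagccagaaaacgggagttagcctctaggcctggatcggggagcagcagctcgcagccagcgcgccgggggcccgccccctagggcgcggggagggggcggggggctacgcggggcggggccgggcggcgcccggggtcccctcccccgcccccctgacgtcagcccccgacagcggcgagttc

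AGGAAG was found in 5 of the 7 promoters, namely those of Sele, Selp, Madcam1, Cd34 and, with 2 matches, Emcn, and in 29.5% of all 32851 promoters. It was not found in those of Icam1 and Mcam. GGANATTCC was found in Icam1, at bases 153 to 145 before the start, and in Sele, at bases 145 to 137. It was found in 0.819% of all promoters. Because the pattern was chosen after these sequences were read, that share is no fair comparison for its matches here. The match was thus present in a gene that was higher and in one that was lower. The consensus of NF-κB sites had 2 matches in Madcam1, which was below the floor on both arrays, none in the other 6, and a match in 3.90% of all promoters. CAGACA, which holds the core bound by Smads, was found in Madcam1 only among the 7, against 17.1% of all promoters. TATAAA was found in Sele only (12.4% of all promoters) and AGATAA, known from GATA factor sites, in none (9.99%). A match describes letters in this window and does not show binding.

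Genes beside the members differed about as often as genes in general, and those measured beside Cd34 were all lower. Over the 3 nearest genes on each side, members left out, 51 genes lay next to the 10 members, and 36 of them were measured. Of these, 7 were lower, 4 higher and 25 between, with a median log2 ratio of -0.25, while of all 11581 genes 1826 were lower, 1849 higher and 7906 between. Emcn had 0 lower among its 5 measured neighbours, Pecam1 0 of 5, Icam2 0 of 3 and Mcam 0 of 3. The 3 of Icam2, Ern1, Snord104 and Tex2, are also among the 5 of Pecam1, so these counts share genes. Beside Madcam1, 2 of 4 were lower, Tpgs1 with a log2 ratio of -1.22 and Cdc34 with -1.50. Beside Cd34, all 3 measured neighbours were lower. They are Plxna2, a semaphorin receptor, with a log2 ratio of -2.33, the complement regulator gene Cr1l with -2.49, and A330023F24Rik with -1.14. Sele and Selp are neighbours in the gene table and were both lower, while F5, the gene of coagulation factor V on the other side of Selp, had a signal of 30.5 on the Smad4-siRNA-labelled array and of 2.62, below the floor, on the control array, a bound under 2-fold. Beside Icam1, S1pr2, a receptor gene for sphingosine phosphate, had a signal of 191 on the Smad4-siRNA-labelled array and of 21.8, under the floor, on the control array, a log2 bound of 3.07 that exceeded the 1.18 of Icam1. The related Icam4 was below the floor on both arrays, and Icam5 had 29.2 on the Smad4-siRNA-labelled array and 3.49 on the control array, also a bound under 2-fold.

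**Figure D3:**
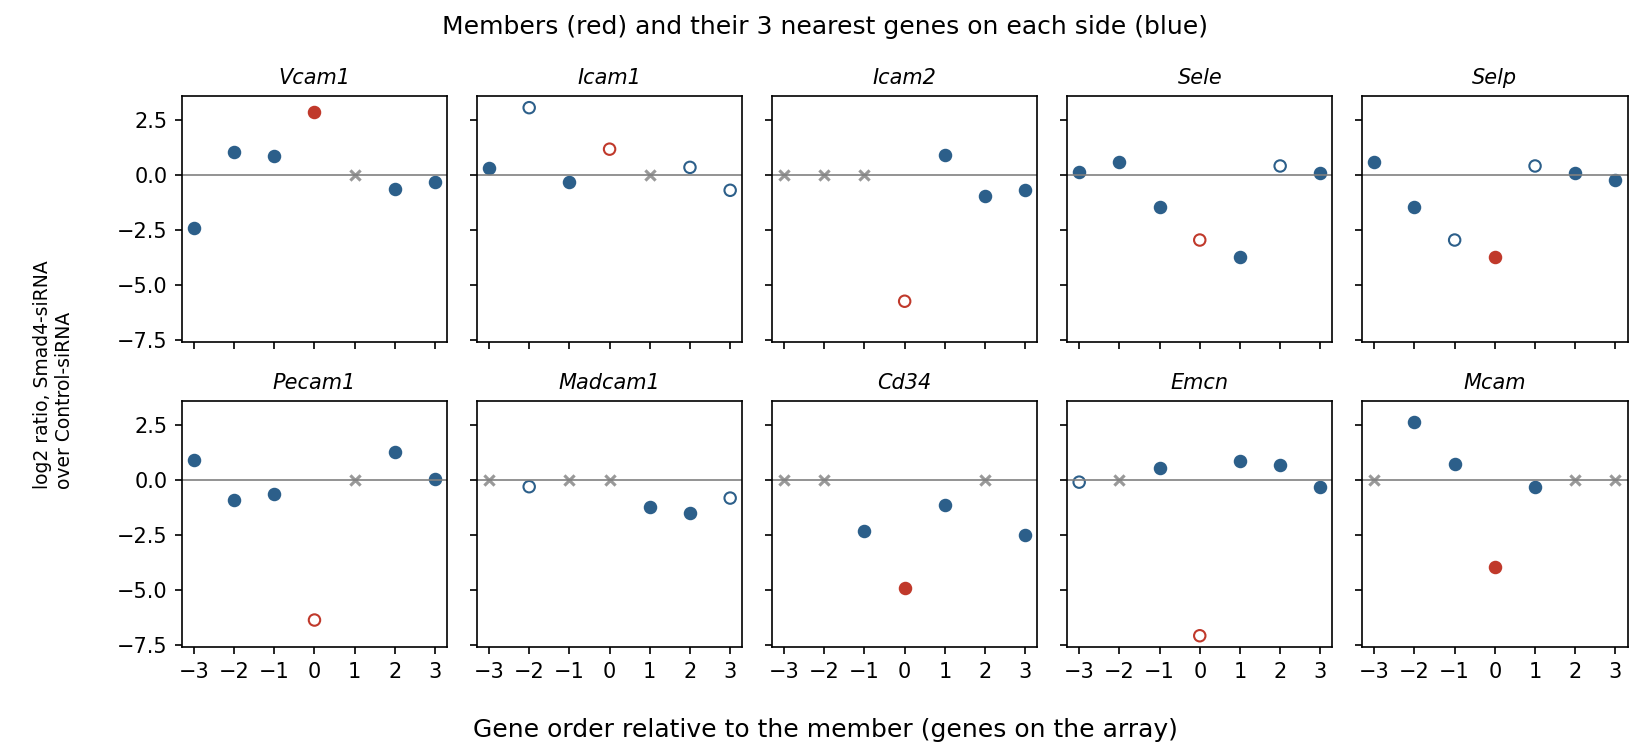
Log2 ratio of each of the 10 members (red) and of the 3 nearest genes on either side that are on the array (blue), in gene order, with bounds as open circles and genes below the floor on both arrays as grey crosses at 0. Emcn, Pecam1, Icam2 and Mcam lie far below their neighbours, while the 3 measured neighbours of Cd34 are lower too.

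Of 10 genes of leukocyte counter-receptors on the array, 5 were below the floor on both arrays, among them the LFA-1 chain Itgal and Selplg, the P-selectin ligand. Of the 5 measured, 1 was lower, 0 higher and 4 between (median -1.19, or -0.47 with sides raised to the floor). For this and each further list, the shares to set beside the counts are those of all genes, 15.8% lower and 16.0% higher. The lower gene was Itga4, the α4 chain of the integrin that binds VCAM-1, with 16.1 on the Smad4-siRNA-labelled array and 553 on the control array, at least 24.3-fold lower. Vcam1 was higher on the same array. Itgb1 and Cd44, a hyaluronan receptor, had log2 ratios of 0.38 and 0.58.

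Other CD34-family and mucin-like genes did not share one direction. Of 8 on the array, 5 were measured, with 1 lower, 2 higher and 2 between and a median of 0.61. Podxl, which encodes the CD34 relative podocalyxin, was 15.0-fold lower, with 53.0 on the Smad4-siRNA-labelled array and 795 on the control array. Podxl2, of the same family, was at least 4.26-fold higher, with 97.1 on the Smad4-siRNA-labelled array and 0.771, below the floor, on the control array. Cd24a, a small mucin-like protein, was 3.06-fold higher. So Cd34 and Podxl were lower while Podxl2 was higher.

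Among 16 other immunoglobulin-family and junctional adhesion genes, 15 were measured, of which 4 were lower, 2 higher and 9 between, with a median of -0.16 (-0.11 with sides raised to the floor). Esam, which encodes an adhesion molecule of endothelial tight junctions and is also among the endothelial markers below, was at least 90.2-fold lower. Jam2, a junctional adhesion molecule, was 4.12-fold lower. The 2 higher genes were Ncam1 and Vsir. Ncam1 had 262 on the Smad4-siRNA-labelled array and 9.03, below the floor, on the control array, at least 11.5-fold higher. Vsir, an immune checkpoint protein, was 2.66-fold higher. The enzymes that build selectin ligands (12 of 15 measured) split into 3 lower, 2 higher and 7 between, with a median of -0.71 (-0.53). In that list C1galt1, which builds the common core of mucin-type sugar chains, was 2.84-fold lower, the tyrosine sulfotransferase gene Tpst1 2.17-fold higher (a log2 ratio of 0.97 as deposited, under 2-fold) and B3gnt3 at least 3.73-fold lower. As deposited and without suffixed probe sets, 0 of these enzymes were at least 2-fold higher. Among 14 genes of cytoplasmic linkers, 4 were lower, 1 higher and 9 between, with a median of -0.71 (-0.65), and 7 were lower for the values as deposited. Here the related scaffold genes Slc9a3r2 and Slc9a3r1 had opposite signs, 12.4-fold lower and 6.17-fold higher, and Arhgef26, an exchange factor for RhoG, was at least 2.50-fold lower.

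The pathways that are known to act on these genes were measured on the same arrays. The list of TNF and IL-1 receptors and NF-κB lacks Nfkb1 and Chuk, which had no probe set annotated to them alone. Of the 19 genes left, 3 were higher, 2 lower and 14 between, with a median of 0.36. Only 1 was higher with the median over probe sets or the floor at the 75th percentile, and 1 was lower with that floor or after removal of a lowess trend. The interleukin-1 receptor gene Il1r1 was at least 9.06-fold higher, with 206 on the Smad4-siRNA-labelled array and 18.3 on the control array, the transcription factor gene Irf1 was 3.95-fold higher, and Ikbkg, the regulatory subunit of the IκB kinase, 2.77-fold lower. Of 18 measured ETS, GATA and SOX factors and others known at endothelial promoters, 12 were lower, 0 higher and 6 between, with a median of -2.24 (-1.66). The ETS factor gene Erg was at least 30.7-fold lower and Klf2, a factor known to be induced by flow, 8.24-fold lower, whereas Gata2 had a log2 ratio of 0.68.

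Markers of several cell types differed between the arrays together with these genes. Of 18 endothelial markers other than the members, 9 reached the floor on the Smad4-siRNA-labelled array and 17 on the control array. Their summed signal was 1065 on the Smad4-siRNA-labelled array and 22070 on the control array, 16 of 17 measured were lower and 0 higher, and their median was -5.65 (-4.71 with sides raised to the floor). Nos3, the endothelial nitric oxide synthase, was 102-fold lower and Eng, a BMP co-receptor, had a log2 ratio of -0.56. On the Smad4-siRNA-labelled array, 9 of the 18 markers of the labelled cell type were thus below the floor.

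Of 12 fibroblast markers, 9 reached the floor on the Smad4-siRNA-labelled array and 2 on the control array, with summed signals of 21264 on the Smad4-siRNA-labelled array and 991 on the control array, and 7 were higher and 0 lower. The collagen gene Col1a2 was at least 324-fold higher, and Pdgfra, a PDGF receptor, 7.24-fold higher, while S100a4 had a log2 ratio of 0.09. Of 11 pericyte and smooth muscle markers, 5 reached the floor on the Smad4-siRNA-labelled array and 2 on the control array, with summed signals of 3226 on the Smad4-siRNA-labelled array and 107 on the control array, and 5 were higher and 0 lower, with Acta2 48.8-fold and Pdgfrb at least 42.5-fold higher. Des went the other way, with 13.7 on the Smad4-siRNA-labelled array, below the floor, and 36.2 on the control array, a bound under 2-fold. The pericyte and smooth muscle markers Myh11, Cnn1, Rgs5, Kcnj8 and Abcc9 were below the floor on both arrays. Fibroblasts and pericytes can also express Vcam1, and pericytes Mcam, which was 15.5-fold lower here. Of 11 leukocyte and microglia markers, 2 were measured on each array, with summed signals of 120 on the Smad4-siRNA-labelled array and 932 on the control array. Cd68 was 23.3-fold lower. Csf1r had a log2 ratio of -0.28, from signals near the floor, 23.2 on the Smad4-siRNA-labelled array and 28.2 on the control array. The pan-leukocyte gene Ptprc had signals of 1.64 on the Smad4-siRNA-labelled array and 2.07 on the control array, both below the floor. Of 7 astrocyte markers, 2 reached the floor on the Smad4-siRNA-labelled array and 1 on the control array, with summed signals of 2840 on the Smad4-siRNA-labelled array and 1884 on the control array. Of these, Slc1a3 was at least 2.71-fold higher and Gja1 had a log2 ratio of 0.59. Gja1 alone made up most of each sum, with 2738 on the Smad4-siRNA-labelled array and 1816.5 on the control array. The astrocyte markers Gfap, Aqp4, Aldh1l1, Slc1a2 and S100b were below the floor on both arrays. No marker was at 0, since all deposited values were above it. The part of these cell types in the differences of the adhesion molecules was not tested.

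**Figure D4:**
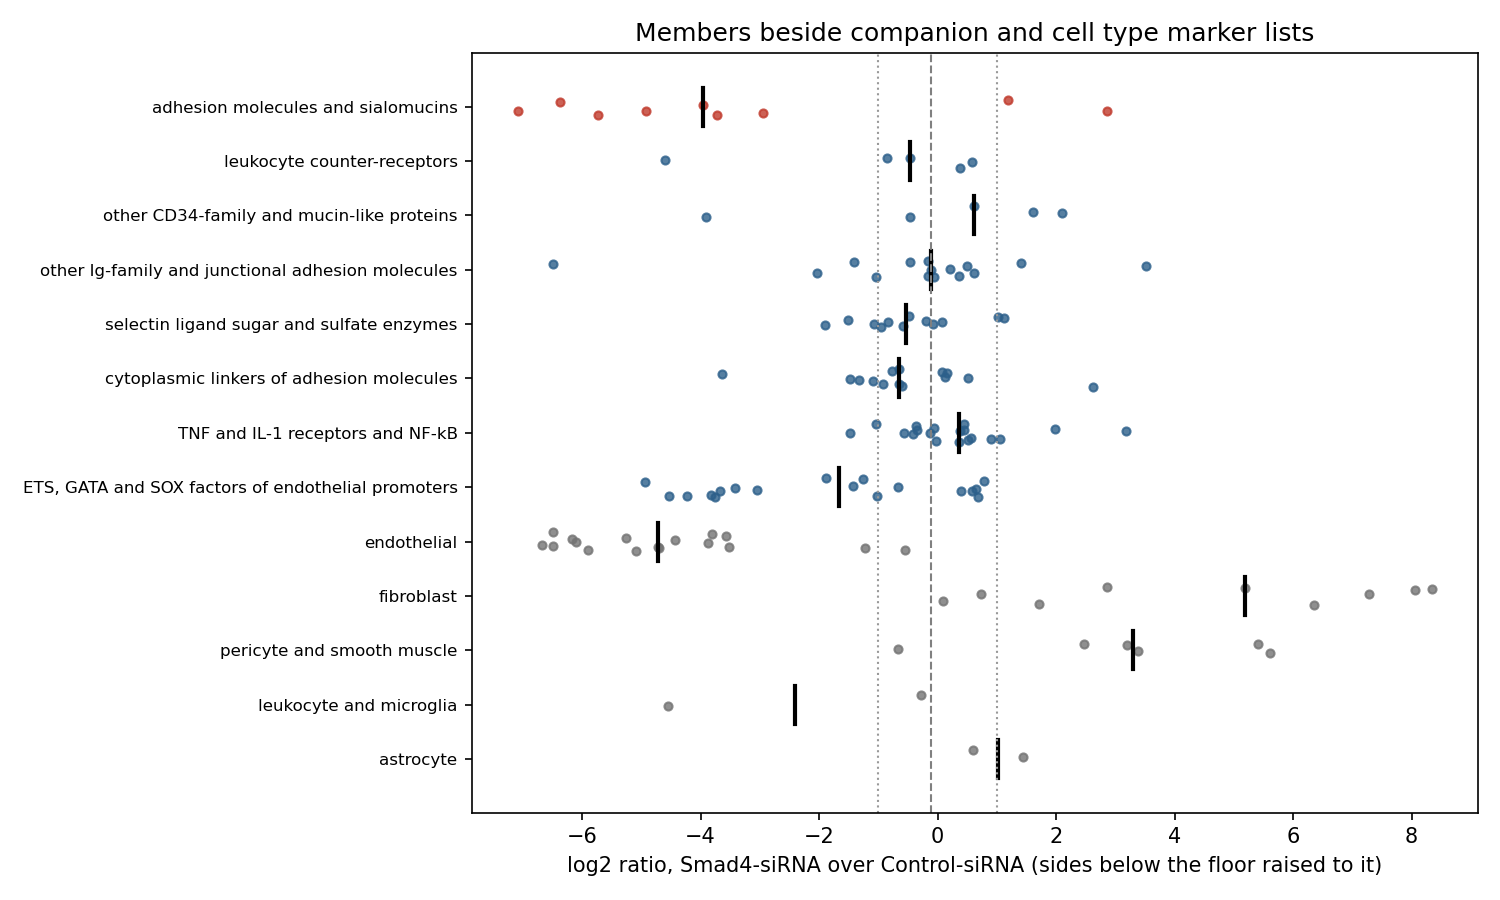
Log2 ratio of each measured gene, with sides below the floor raised to it, for the adhesion molecules and sialomucins (red), 7 companion lists (blue) and 5 marker lists (grey); black bars are list medians, the dashed line is the median of all genes (-0.11) and dotted lines mark 2-fold. The members have a median of -3.96, between those of the endothelial markers (-4.71) and of the leukocyte and microglia markers (-2.41, 2 genes measured). The ETS, GATA and SOX factors have one of -1.66 and the fibroblast markers one of 5.18.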

How the data were processed

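The authors deposited linear MAS5 signal intensity per probe set, according to the submitters' processing notes. For MAS5, no version, scaling target or detection call is stated in those notes. Groups came from the sample titles. Of the probe sets, 64 control probe sets were left out and 45037 kept. Probe sets were named from the platform annotation, an old one, with symbols brought up to date through their Entrez numbers and RefSeq (GRCm38.p6). There were 34945 probe sets with 1 gene, 932 with several, none of them holding a member, and 9160 without a gene here.

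The 2% trimmed means of the deposited signals were 114 on the Smad4-siRNA-labelled array and 138 on the control array. The medians went the other way, 24.8 on the Smad4-siRNA-labelled array and 21.0 on the control array. The distributions thus differed in shape, and log2 signals were quantile normalized. For each gene the probe set with the highest mean log2 signal was used. Each array's median served as the floor in place of detection calls. Ratios are Smad4-siRNA over Control-siRNA. With 1 array per group no test was made. Members and gene lists were chosen with earlier results of these data known. Esam, Spn and Itgam stand on more than 1 list and were counted in each. Apart from these, the genes named are all members, each list's lowest and highest log2 ratio on both arrays and largest bound, and Smad4. Chosen after their values were seen were Xist, Eif2s3y, Kdm5d, Uty, Itgal, Selplg, Ptprc, Ncam1, Des and the neighbouring genes. So were the pericyte and astrocyte markers named as below the floor. The comparison was tested on simulated data in which only genes well above the floor were changed, so bounds against the floor were not tested. The simulated noise was also smaller than the pooled SD between probe sets, so the 2-fold calls were tried under milder noise only. Python 3.11.15, numpy 2.4.6, pandas 2.3.3 and statsmodels 0.14.6 were used. Alternatives were 3 other scalings, floors at the 25th and 75th percentile, a pseudocount, the median over probe sets, and leaving out probe sets with a suffix for shared sequence.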

Additional observations from a re-analysis of the deposited data

How the results depend on the processing

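No paired analysis was possible because each group had 1 array. The direction of each of the 9 measured members was kept under all 8 alternatives in which it was measured. Of the members, 7 were lower and 2 higher, except that with a floor at the 75th percentile 6 were lower and 1 higher, and that without suffixed probe sets 4 were lower, since 6 of 10 members were then left. Their plain median of -3.96 was -4.44 under a 75th-percentile floor and -4.92 with the median over probe sets, and the median with sides raised to the floor was -2.68 with that floor and -3.33 without suffixed probe sets. Bounds follow the floor by construction. Under a floor of 5.60 (25th percentile) or 127 (75th), the log2 bounds were -9.11 and -4.60 for Emcn, -8.39 and -3.89 for Pecam1, and -7.75 and -3.25 for Icam2. At the 75th percentile they were -0.47 for Sele, -1.25 for Selp and -2.12 for Mcam, while at the 25th Sele was measured on both arrays, with a log2 ratio of -3.91. Madcam1 was measured only with the floor at the 25th percentile, at -0.39. The median log2 ratio of all genes was -0.14 after quantile normalization, -0.30 as deposited and -0.03 after removal of a lowess trend.

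Counts of the companion lists moved by over 1.5 times in 7 of the 8 alternatives, each time by 1 to 3 genes. As deposited, 7 linker genes were lower, 1 ETS, GATA or SOX factor higher and 0 sugar enzymes higher. Centring gave 1 such factor and 1 sugar enzyme higher, and the lowess trend 1 TNF, IL-1 or NF-κB gene lower. With the floor at the 25th percentile, 3 counter-receptors, 2 CD34-family genes, 2 leukocyte, 1 pericyte and 1 astrocyte marker were lower and 1 ETS, GATA or SOX factor higher. At the 75th, 1 TNF, IL-1 or NF-κB gene was higher and 1 lower, 1 sugar enzyme higher and 1 lower, and 1 CD34-family gene, 1 immunoglobulin-family gene, 2 pericyte and 0 astrocyte markers higher. With the median over probe sets, 1 TNF, IL-1 or NF-κB gene and 1 immunoglobulin-family gene were higher. Without suffixed probe sets, 1 immunoglobulin-family gene and 0 sugar enzymes were higher and 1 sugar enzyme lower. Apart from the floor and the probe sets left out, the cause was not tested.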
